A study of Homo sapiens with 16 samples.

Results

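Cell junction and polarity genes were followed through 24 h of actin depolymerization in human pancreatic progenitors. The 48 genes were taken from a list of cadherins, catenins, nectins and afadin, claudins, tight junction components, desmosome components, EPCAM, polarity proteins and the ezrin, radixin and moesin (ERM) family, out of 35810 genes with a transcript in the deposited tables. All 48 had reads, and 47 passed the filter on low counts and were tested. The exception, EVPL (envoplakin, a desmosomal linker), had between 0 and 3 reads in any library.

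The cells were day 19 pancreatic progenitors differentiated from NGN3-GFP cells, a reporter line made from the human embryonic stem cell line SA121, so that every library came from 1 cell line and 1 genotype. They received 0.5 µM latrunculin B (LatB), which binds actin monomers and keeps them out of filaments, for 3, 6, 12 or 24 h. Control 0 h libraries were taken before treatment (their treatment label reads DMSO), and control 24 h libraries after 24 h in the vehicle DMSO. PolyA RNA was sequenced from 3 samples each of control 0 h, LatB 3 h, LatB 6 h and LatB 24 h, and from 2 samples each of control 24 h and LatB 12 h. Whether samples of a group were separate cultures is not stated, so p-values measure the spread between these samples, which may be technical. LatB 3, 6 and 12 h were each compared with the same control 0 h libraries, so hours in culture and drug cannot be told apart at those times, whereas LatB 24 h was compared with its own vehicle.

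In an epithelium, cadherins hold neighbouring cells together at adherens junctions and catenins tie them to actin filaments, with nectins and afadin as a parallel adhesion system. Claudins, occludin and their relatives seal the space between cells at tight junctions, whose cytoplasmic plaque of ZO and cingulin proteins also binds actin, while desmosomes anchor to keratin filaments through plakophilins and desmoplakin. The PAR, Crumbs and Scribble complexes set the apical and basal sides of the cell, and ezrin, radixin and moesin link the apical membrane to actin. In the developing pancreas these proteins organize the progenitor epithelium that endocrine cells leave as they form.

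Libraries held between 23609727 and 33515398 estimated reads, with at least 15209 genes at 10 or more reads in each. The markers of the labelled cell type were present, since PDX1 and SOX9, transcription factors of pancreatic progenitors, stood at 322 to 345 and 409 to 442 CPM (reads of a gene over all reads of its library, scaled) in control 0 h, and the 10 progenitor markers summed to between 2094 and 3682 CPM over all 16 libraries. That sum hides opposite changes. At LatB 3, 6, 12 and 24 h, 3, 3, 2 and 4 of these markers were called higher and 2, 1, 3 and 3 lower. These were 50%, 40%, 50% and 70% of the 10, beside 31.6%, 43.3%, 35.8% and 40.8% of all genes. At 24 h their log2 changes ran from -1.09 to 1.73. PTF1A, a marker of early multipotent progenitors and of the acinar lineage, was near 0, at 0.170 to 0.302 CPM in control 0 h. The 10 endocrine markers summed to between 40.8 and 49.3 CPM in control 0 h, 77.2 and 90.6 in control 24 h, 70.7 and 117 at LatB 3 h, 104 and 163 at 6 h, 105 and 140 at 12 h, and 126 and 380 at 24 h, and their part in the changes below was not tested. In bulk RNA, fewer cells of a type and less RNA per cell cannot be told apart. 2 libraries stood apart. In LatB 12 h replicate 2, 10 mesenchyme markers summed to 1069 CPM against 224 in replicate 1 and 173 to 448 in the other 14 libraries, and 4 endothelium markers to 40.5 CPM against 9.62 (3.71 to 16.2 elsewhere). Its 4 liver markers summed to 1436 CPM against 709 in replicate 1 (447 to 838 elsewhere), and it had the lowest progenitor sum. Its 3 pluripotent markers summed to 9.47 CPM against 1.84 in replicate 1 (1.85 to 4.91 elsewhere). Its 4 intestine markers were lower, at 100 CPM against 203 (166 to 257 elsewhere). LatB 24 h replicate 1 differed from replicates 2 and 3 in its endocrine markers (126 CPM against 380 and 343), progenitor markers (2754 against 3682 and 3522), liver markers (838 against 447 and 552) and endothelium markers (16.2 against 3.71 and 7.85). Without it 26 members were called at 24 h (28 with it), CDH1, CLDN3 and CLDN7 losing their calls and CDH17 gaining one. Markers of blood cells summed to at most 0.188 CPM in any library.

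Per length of transcript, the highest members in control 0 h were EPCAM, an adhesion molecule of simple epithelia, at 1191 ± 18.3 TPM (abundance per transcript length, mean ± SD, n = 3), and the tight junction protein CLDN6 at 1065 ± 21.7 TPM. CTNNB1 (β-catenin, 368 ± 30.3) and CDH1 (E-cadherin, 347 ± 4.92) followed, and their ranges overlapped. CTNND1 (p120 catenin, 272 ± 1.124), CDH6 (K-cadherin, 248 ± 7.04) and CTNNA1 (α-catenin, 247 ± 1.04) came next, the last pair again overlapping. Among the tested members the lowest were CDH17 at 4.39 ± 0.504 TPM, CLDN2 at 1.28 ± 0.101 and CLDN10 at 0.864 ± 0.207, and EVPL, which was not tested, was at 0.0530 ± 0.0917. CLDN6 alone made up 63.9% ± 0.782 of the summed claudin TPM, with CLDN7 at 14.04% ± 0.451 and CLDN4 at 9.31% ± 0.361.

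The junction genes changed in both directions, by small amounts, and more of them were lower than higher at 12 and 24 h. At 3 h, 9 of 47 were called higher and 8 lower at an adjusted p below 0.05, where 31.6% of all 16705 genes tested were called (16.8% higher and 14.7% lower). At 6 h, 16 were higher and 10 lower, against a background of 43.3% (22.9% and 20.4%). At 12 h, 10 were higher and 21 lower, against 35.8% (19.1% and 16.8%). At 24 h, 9 were higher and 19 lower, against 40.8% (21.9% and 18.8%). The share of members called was thus near the background at 3 h (36.2%) and above it at 6, 12 and 24 h (55.3%, 66.0% and 59.6%). That background was all genes tested and was not matched to the members for number of reads. With libraries compared unscaled the split was 4 higher and 9 lower at 3 h and 13 and 16 at 6 h, and on the TPM scales (limma on log2-transformed TPM) 3 and 8, and 9 and 14. The median log2 change of the members was 0.07, 0.06, -0.20 and -0.20 at the 4 times, beside medians of all genes of 0.00, -0.01, 0.01 and 0.01.

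Few changes were large. A log2 change of at least 1 in size was reached by 0 called members at 3 h, by CGNL1 alone at 6 h, by CLDN4, CLDN10 and CLDN18 at 12 h and by CLDN2 alone at 24 h, where 3.68%, 6.18%, 7.58% and 7.26% of all genes were called at that size. The libraries of treated and control groups did not overlap for 22, 33, 37 and 38 of the 47 members at the 4 times, beside 48.2%, 57.4%, 51.4% and 63.9% of all genes. Between control 24 h and control 0 h, edgeR called 0 members (6 had an unadjusted p below 0.05, and DESeq2 and limma also called 0), with 0.251% of all genes called (0.0299% higher, 0.221% lower and 0.0419% with a log2 change of at least 1 in size), and the groups did not overlap for 18 of 47 beside 28.8% of all genes.

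**Figure D1:**
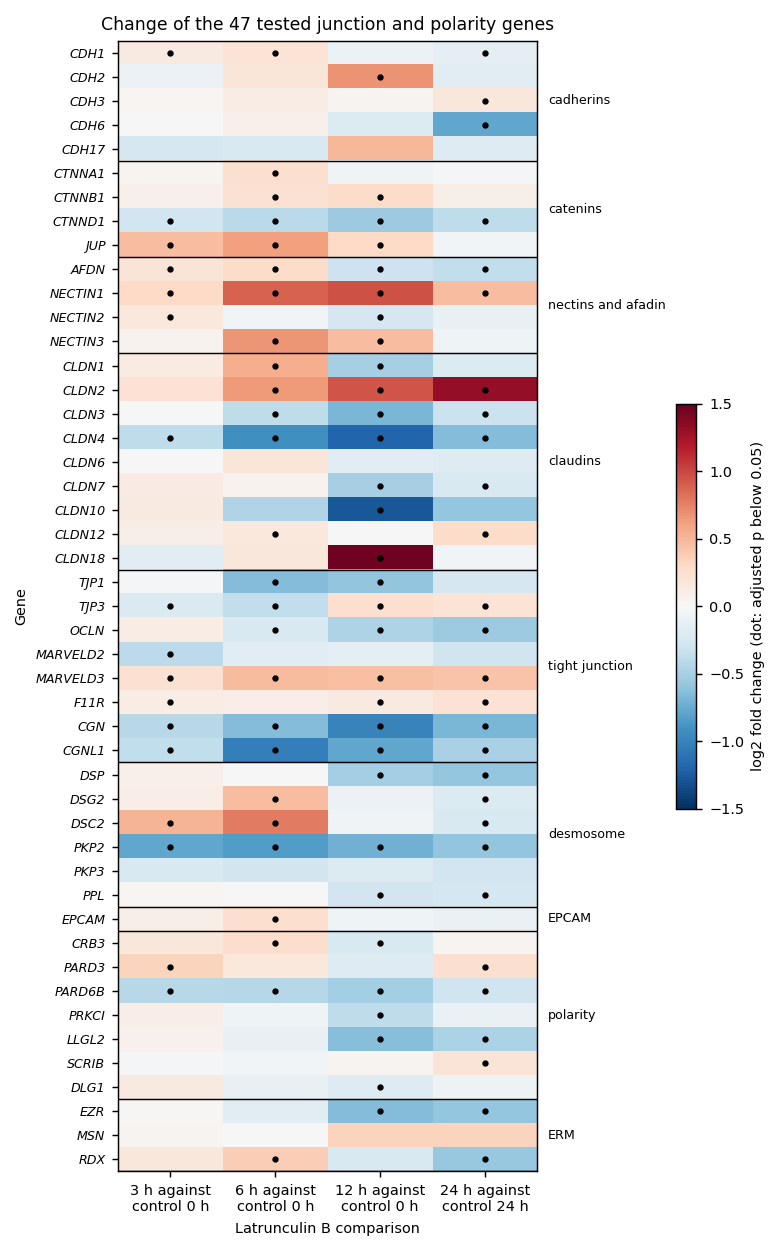
Log2 fold change of the 47 tested members (rows, grouped by role) in the 4 latrunculin B comparisons (columns), with red for higher and blue for lower than control and a dot where the adjusted p was below 0.05. The 12 h and 24 h columns hold 21 and 19 dots on blue cells against 8 and 10 in the 3 h and 6 h columns.

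Over the 4 times, 6 members were lower at each (CGN, CGNL1, CLDN4, CTNND1, PARD6B and PKP2) and 2 were higher at each (MARVELD3 and NECTIN1). Another 13 were called lower at 1 to 3 of the times and 13 higher, and 9 were called in both directions. CDH17, CLDN6, MSN and PKP3 were not called at any time. All 4 calls of CLDN4, CTNND1 and PKP2 were kept under every alternative run other than a required log2 change of at least 1. Some of those of CGN, CGNL1, PARD6B, MARVELD3 and NECTIN1 were not. With control 24 h and control 0 h holding no library in common, the 28 calls at 24 h can be set beside those at the other times. Of the 17 members called at 3 h, 4 were higher and 6 lower at both 3 h and 24 h, 3 were higher at 3 h and lower at 24 h, and 1 the reverse. Of the 26 called at 6 h, 4 and 8 kept their direction at 24 h, 5 turned from higher to lower and 1 from lower to higher. All 19 members called at both 12 h and 24 h had the same direction (5 higher and 14 lower). The same counts over all genes were not made, so these cannot be called particular to the members. The calls at 3, 6 and 12 h also share the control 0 h libraries.

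The start-site windows of CGN (cingulin), EZR (ezrin), AFDN (afadin) and DSG2 (desmoglein 2) are shown as examples with and without the motif described here, from the 17 windows of members that hold no annotated exon, and were chosen after the values of these genes were seen. Each is the 250 bases before a RefSeq transcript start, 5′ to 3′ on the strand of the gene, in GRCh38.p14. The DSG2 window ends at the base before the gene, while those of CGN, EZR and AFDN lie within introns of longer annotated transcripts, upstream of an internal start. Capitals mark the E-box letters CAGGTG read on either strand (CACCTG on the other), the motif bound by SNAI and ZEB factors.
CGN, chr1:151511137-151511386, plus strand: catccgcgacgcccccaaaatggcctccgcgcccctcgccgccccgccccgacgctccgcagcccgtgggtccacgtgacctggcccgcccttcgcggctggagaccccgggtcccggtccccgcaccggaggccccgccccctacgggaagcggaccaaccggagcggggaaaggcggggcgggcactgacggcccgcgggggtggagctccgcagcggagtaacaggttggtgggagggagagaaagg
EZR, chr6:158818236-158818485, minus strand: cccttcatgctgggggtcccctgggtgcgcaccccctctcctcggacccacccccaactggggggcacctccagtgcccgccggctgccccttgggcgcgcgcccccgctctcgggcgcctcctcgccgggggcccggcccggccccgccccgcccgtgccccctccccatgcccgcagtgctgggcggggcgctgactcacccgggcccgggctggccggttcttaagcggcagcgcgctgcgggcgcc
AFDN, chr6:167827385-167827634, plus strand: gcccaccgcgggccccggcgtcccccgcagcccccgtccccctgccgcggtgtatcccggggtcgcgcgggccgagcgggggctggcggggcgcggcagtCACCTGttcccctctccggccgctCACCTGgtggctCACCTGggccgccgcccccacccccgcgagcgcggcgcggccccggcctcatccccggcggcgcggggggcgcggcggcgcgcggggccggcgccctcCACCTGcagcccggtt
DSG2, chr18:31497927-31498176, plus strand: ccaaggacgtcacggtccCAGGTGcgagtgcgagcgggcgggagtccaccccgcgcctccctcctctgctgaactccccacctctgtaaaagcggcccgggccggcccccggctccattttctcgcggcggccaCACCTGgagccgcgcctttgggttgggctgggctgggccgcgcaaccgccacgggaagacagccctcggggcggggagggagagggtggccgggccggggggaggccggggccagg
The AFDN window held 4 matches and the DSG2 window 2, while CGN and EZR had 0. Over the 31 members with an entry, 13 of 51 start-site windows (25.5%) held CAGGTG, beside 17.5% of all 35116 windows of the same length. They belonged to 12 genes, AFDN, CLDN7, CLDN18, CRB3, DLG1, DSC2, DSG2, DSP, JUP, OCLN, TJP1 and TJP3. Of these, DLG1, DSP, CLDN7, OCLN and TJP1 were called lower and never higher. CLDN18 and JUP were called higher and never lower, and AFDN, CRB3, DSC2, DSG2 and TJP3 in both directions. CLDN1, NECTIN2 and RDX, also called in both directions, had 0 matches. Whether the motif goes with the direction of change was not tested. GGAATG, the letters of TEAD sites, was in 1 window (PRKCI, 1.96%, beside 11.9% of all), CCGGAA, the letters of ETS sites, in 5 (9.80% beside 14.5%), and the CArG box of SRF in 0 (beside 1.16%). Both strands were searched, and GGAATG shares its letters GGAA with CCGGAA, which the PRKCI window also holds. Members without an entry were CDH1, CDH3, CDH6, CDH17, CTNND1, NECTIN1, MARVELD3, F11R, PKP2, PKP3, PPL, EVPL, EPCAM, PARD3, PARD6B, LLGL2 and SCRIB.

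Among the cadherins, E-cadherin rose slightly early and fell slightly at 24 h, and the largest change was a fall of CDH6 at 24 h. CDH1 (chr16:68737292-68835537, plus strand) stood at 1046, 1054 and 1070.0 CPM in control 0 h, at 1162, 1172 and 1139.5 after 3 h, at 1231, 1232 and 1189 after 6 h and at 1015 and 968 after 12 h. At 24 h CDH1 was at 914, 986 and 965 CPM under LatB and 1054 and 1059.9 under DMSO. All libraries of 3 h and 6 h lay above control 0 h, and all of 24 h below control 24 h. CDH1 rose by 0.13 ± 0.04 SE (adjusted p = 0.0230) at 3 h and by 0.20 ± 0.04 SE (adjusted p = 0.00110) at 6 h on the log2 scale, was not called at 12 h (-0.09 ± 0.04 SE, adjusted p = 0.129), and changed by -0.15 ± 0.04 SE (adjusted p = 0.0186) at 24 h. The 3 h call was lost without any 1 of 5 libraries and the 24 h call without any 1 of 3 (both control 24 h libraries and LatB 24 h replicate 1), with log2 changes of 0.10 to 0.14 and -0.17 to -0.12 over the libraries left out in turn. The 3 h call was also lost unscaled (0.053) and on both TPM scales (0.067), the 6 h call on both TPM scales (0.11), and the 24 h call with an offset for the mean transcript length of the gene in each library (-0.14).

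CDH6, a cadherin of developing kidney and other epithelia, read 871, 904 and 944 CPM in control 0 h, 977, 934 and 808 after 3 h, 981, 947 and 948 after 6 h and 627 and 950.0 after 12 h. At 24 h CDH6 read 674, 451 and 568 CPM under LatB and 940.2 and 996 under DMSO. The 24 h groups stood well apart, and the 12 h libraries fell on either side of the control ones. CDH6 fell at 24 h (-0.78 ± 0.16 SE, adjusted p = 0.00174) and was not called at 3, 6 or 12 h, although without LatB 12 h replicate 2 it was lower at 12 h too (-0.53).

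N-cadherin, CDH2, which is found in mesenchyme, neurons and endocrine cells, was at 401, 414 and 424 CPM in control 0 h, 412, 416 and 334 after 3 h, 489, 469.7 and 447 after 6 h and 514 and 802 after 12 h. At 24 h CDH2 was at 459.9, 333 and 389.6 CPM under LatB and 415 and 463 under DMSO. Its only call was a rise at 12 h (0.67 ± 0.16 SE, adjusted p = 0.00546), which was lost without LatB 12 h replicate 2 (0.31), the library with the high mesenchyme markers, whose part in it was not tested, and in a fit of only the groups compared (0.66). The ratio of CDH1 to CDH2 TPM was 1.96 ± 0.0375 in control 0 h, 2.30 ± 0.222 at 3 h, 1.97 ± 0.0874 at 6 h, 1.497 and 0.909 in the 12 h libraries, 1.86 ± 0.364 at 24 h and 1.83 ± 0.147 in control 24 h. P-cadherin, CDH3, rose at 24 h (0.17 ± 0.06 SE, adjusted p = 0.0409), from 165 and 169 to 174, 199 and 191 CPM, a call that was lost without any 1 of 4 of the 5 libraries (0.13 to 0.23) and with the transcript length offset (0.18) or on the TPM scales (both 0.16). In all, CDH3 lost this call under 12 of 17 alternatives. Its levels were 155, 154 and 146 CPM in control 0 h, 159, 161 and 146 at 3 h, 167, 156 and 168 at 6 h and 153 and 159.7 at 12 h. CDH17, a cadherin of intestine and liver, was not called at any time, and at 24 h its LatB replicate 1 read 19.0 CPM against 7.55 and 6.15 in the others, without which it was called lower (-0.87).

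Catenins showed both a sustained fall and a rise that was called only before 24 h. CTNND1 (chr11:57753243-57819546, plus strand), the p120 catenin that holds cadherins at the membrane, was lower at every time. It read 942, 944 and 903 CPM in control 0 h, 767, 800.4 and 722 after 3 h, 726, 696 and 690.4 after 6 h and 647 and 627 after 12 h. At 24 h CTNND1 read 692, 699 and 739 CPM under LatB and 922 and 919 under DMSO. No treated library reached a control one, and the log2 changes were -0.28 ± 0.05 SE (adjusted p = 0.000382) at 3 h, -0.40 ± 0.05 SE (adjusted p = 1.61e-05) at 6 h, -0.55 ± 0.05 SE (adjusted p = 5.89e-06) at 12 h and -0.38 ± 0.05 SE (adjusted p = 9.31e-05) at 24 h.

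JUP (chr17:41754604-41786931, minus strand), plakoglobin, which serves both adherens junctions and desmosomes, rose at 3, 6 and 12 h and was back at the control level at 24 h. Its libraries held 275, 289 and 271 CPM in control 0 h, 395, 411 and 348 after 3 h, 455, 419 and 406 after 6 h and 341 and 341 after 12 h. At 24 h JUP held 314, 261 and 293 CPM under LatB and 296 and 300.4 under DMSO, and these groups overlapped. The log2 changes were 0.47 ± 0.07 SE (adjusted p = 0.000300) at 3 h, 0.62 ± 0.07 SE (adjusted p = 2.03e-05) at 6 h and 0.29 ± 0.08 SE (adjusted p = 0.0125) at 12 h, and at 24 h the value was not called (-0.04 ± 0.08 SE, adjusted p = 0.709). On the TPM scales the 3 h value was 0.30, still called, and the 12 h call was lost (both 0.27), as it was against control 24 h (0.19).

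β-catenin, CTNNB1, which carries Wnt signals as well as cadherin adhesion, moved little. It was at 673, 656 and 632 CPM in control 0 h, 682, 718 and 674 after 3 h, 784, 765 and 751 after 6 h and 866 and 722 after 12 h. At 24 h CTNNB1 was at 708, 703 and 705 CPM under LatB and 659 and 673 under DMSO. Treated libraries lay above their controls at each time, but the changes were called only at 6 h (0.23 ± 0.06 SE, adjusted p = 0.00521) and 12 h (0.28 ± 0.06 SE, adjusted p = 0.00387). α-Catenin, CTNNA1, was higher at 6 h alone (0.24 ± 0.05 SE, adjusted p = 0.000980). On both TPM scales the 6 h calls of CTNNB1 (0.16) and CTNNA1 (0.086) were lost, and unscaled the values were 0.14 for each, still called. The 12 h call of CTNNB1 was lost with the transcript length offset (0.20) and in a fit of only the groups compared (0.27).

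Of nectins and afadin, 3 of 4 rose at 3 h, beside 16.8% of all genes called higher. Directions within this group parted later. NECTIN1 (chr11:119623408-119729200, minus strand) was, with MARVELD3, one of the members that rose at all 4 times. It stood at 96.9, 90.7 and 89.6 CPM in control 0 h, 115, 114 and 112 after 3 h, 179.7, 171 and 162 after 6 h and 193 and 166 after 12 h. At 24 h NECTIN1 stood at 123, 131 and 128 CPM under LatB and 86.7 and 98.4 under DMSO. Every treated library was above every control one, with log2 changes of 0.30 ± 0.06, 0.89 ± 0.06, 0.96 ± 0.07 and 0.47 ± 0.07 (SE, adjusted p = 0.00294, 3.47e-07, 6.87e-07 and 0.000231) at 3, 6, 12 and 24 h. The 3 h call was lost on both TPM scales (0.029 and 0.030) and with the transcript length offset (0.11).

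Afadin, AFDN (chr6:167826893-167972023, plus strand), the actin-binding partner of nectins, was called higher at 3 and 6 h and lower at 12 and 24 h. It read 481, 528 and 510.4 CPM in control 0 h, 596, 583 and 555 after 3 h, 625, 614 and 597 after 6 h and 421 and 393 after 12 h. At 24 h AFDN read 414, 384 and 407 CPM under LatB and 539 and 499 under DMSO. The groups did not overlap at any of the 4 times. Its log2 changes were 0.19 ± 0.05, 0.27 ± 0.05, -0.31 ± 0.06 and -0.37 ± 0.06 (SE, adjusted p = 0.0115, 0.000760, 0.000973 and 0.000229) in order of time. The 3 h call was lost without control 0 h replicate 1 (0.16) or LatB 3 h replicate 1 (0.15) or 2 (0.16), unscaled (0.11), with the transcript length offset (0.23), on both TPM scales (0.15) and against control 24 h (0.16). The 6 h call was lost with the offset (0.19) and on both TPM scales (0.10). NECTIN3 was higher at 6 h (0.66 ± 0.12 SE, adjusted p = 0.000516) and 12 h (0.47 ± 0.13 SE, adjusted p = 0.0130, lost without control 0 h replicate 2, at 0.42, or LatB 12 h replicate 2, at 0.31, or against control 24 h, at 0.29). NECTIN2 was higher at 3 h (0.16 ± 0.04 SE, adjusted p = 0.0122, lost without control 0 h replicate 3 or LatB 3 h replicate 2, both at 0.13, or LatB 3 h replicate 3, at 0.14) and lower at 12 h (-0.25 ± 0.05 SE, adjusted p = 0.00171, lost in a fit of only the groups compared, at -0.26). The 3 h value of NECTIN2 was below 0 on both TPM scales (-0.023). It was not called unscaled (0.083) or with the transcript length offset (0.059).

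**Figure D2:**
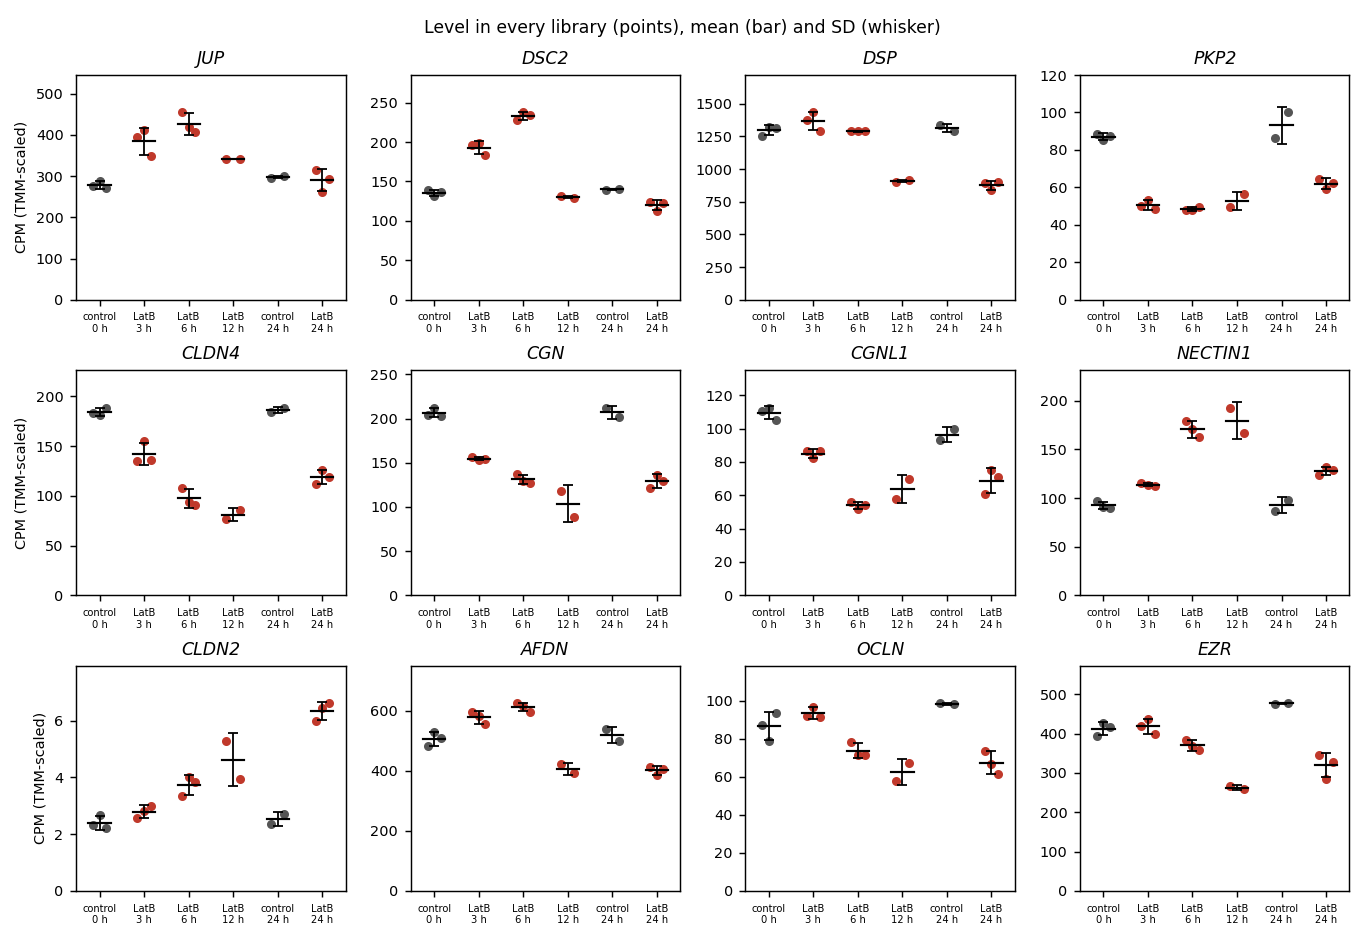
CPM of 12 members (panels) in every library, by group on the horizontal axis, with points for libraries (grey control, red LatB), a bar for the mean and a whisker for the SD. PKP2, CLDN4, CGN and CGNL1 lie below control at all 4 times, JUP and DSC2 peak at 6 h, and DSP, AFDN, OCLN and EZR lie below control at 12 and 24 h.

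Claudins were called in both directions, with more lower than higher at 12 and 24 h. At 12 h 2 of 9 were called higher and 5 lower, beside 19.1% and 16.8% of all genes. At 24 h 2 and 3 were, beside 21.9% and 18.8% of all genes. CLDN4 (chr7:73799542-73832690, plus strand), a sealing claudin, fell at every time, and among the members called lower at 12 h only CLDN10 had a larger fall. Its level was 183, 181 and 189 CPM in control 0 h, 135, 155 and 137 after 3 h, 108, 93.5 and 90.5 after 6 h and 76.6 and 85.5 after 12 h. At 24 h CLDN4 was 112, 126 and 119 CPM under LatB and 184 and 189 under DMSO. No treated library reached a control one, and the fitted level at 12 h was 0.440 times that of control 0 h. The log2 changes were -0.38 ± 0.07, -0.92 ± 0.07, -1.19 ± 0.09 and -0.65 ± 0.08 (SE, adjusted p = 0.00154, 8.66e-07, 6.71e-07 and 5.25e-05) at 3, 6, 12 and 24 h. CLDN3, whose gene lies 29271 bases from CLDN4 on chromosome 7, was not called at 3 h and was lower at 6 h (-0.38 ± 0.11 SE, adjusted p = 0.0109), 12 h (-0.68 ± 0.12 SE, adjusted p = 0.000793) and 24 h (-0.32 ± 0.12 SE, adjusted p = 0.0418). The 24 h call of CLDN3 was lost without either control 24 h library (-0.38 and -0.26) or LatB 24 h replicate 1 (-0.26) or 3 (-0.32).

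CLDN2 (chrX:106900164-106930861, plus strand), which forms pores for cations and water in leaky epithelia, rose from a low level. It was at 2.31, 2.68 and 2.21 CPM in control 0 h, 2.56, 2.81 and 3.00 after 3 h, 3.35, 4.01 and 3.86 after 6 h and 5.29 and 3.96 after 12 h. At 24 h CLDN2 was at 6.00, 6.45 and 6.62 CPM under LatB and 2.37 and 2.72 under DMSO. The 3 h libraries overlapped control 0 h and those of 6, 12 and 24 h lay above their controls. CLDN2 rose by 0.64 ± 0.15, 0.94 ± 0.16 and 1.32 ± 0.16 (SE, adjusted p = 0.00308, 0.000520 and 4.79e-05) at 6, 12 and 24 h, and the fitted level at 24 h was 2.49 times control 24 h. In TPM it remained 0.228% ± 0.0227 of the claudin sum at 24 h, against 0.0786% ± 0.00569 in control 24 h. With a pseudocount of 1 on TPM its log2 changes were 0.33, 0.59 and 0.86, all still called.

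CLDN7 was lower at 12 h (-0.50 ± 0.08 SE, adjusted p = 0.000237) and 24 h (-0.23 ± 0.07 SE, adjusted p = 0.0249, lost without either control 24 h library, at -0.22 and -0.24, or LatB 24 h replicate 1, at -0.18, or 3, at -0.22). CLDN1 was higher at 6 h (0.55 ± 0.13 SE, adjusted p = 0.00477, lost against control 24 h, at 0.31) and lower at 12 h (-0.50 ± 0.15 SE, adjusted p = 0.0220, lost without control 0 h replicate 3, at -0.45, or LatB 12 h replicate 2, at -0.31). CLDN12 was higher at 24 h (0.28 ± 0.06 SE, adjusted p = 0.00289) and at 6 h (0.15 ± 0.05 SE, adjusted p = 0.0370), where its groups overlapped and the call was lost without any 1 of 4 libraries (0.11 to 0.20). The 6 h value of CLDN12 was below 0 on both TPM scales (-0.025 and -0.026) and was not called unscaled (0.061) or with the transcript length offset (0.064), which also ended the 24 h call (0.18). CLDN10 was lower at 12 h (-1.27 ± 0.35 SE, adjusted p = 0.0117, lost without LatB 12 h replicate 1, at -1.15) on 9 to 42 reads per library in any group. Its exons share 1558 bases with DZIP1 on the opposite strand, so part of its reads could belong to that gene. DZIP1 averaged 700 reads per library and CLDN10 25. The most abundant claudin, CLDN6, a claudin of embryonic epithelia, was not called at any time, with log2 changes between -0.19 and 0.18. CLDN18 was higher at 12 h alone (1.46 ± 0.35 SE, adjusted p = 0.00574), with 77.8 CPM in replicate 1 and 254 in replicate 2 beside 64.6, 52.4 and 64.2 in control 0 h, and the call was lost without replicate 2 (0.37). In a fit of only the groups compared the 12 h calls of CLDN1 (-0.51), CLDN10 (-1.28) and CLDN18 (1.447) were lost. CLDN10 was at -0.48, still called, with a pseudocount of 1 on TPM. The transcript CLDN18-202, which begins at the upstream first exon (chr3, position 137998735), was estimated at 24.98 ± 3.35 TPM in control 0 h and CLDN18-201, which begins at position 138010165, at 4.24 ± 1.83, and in the 12 h libraries the means were 76.7 and 7.68.

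**Figure D3:**
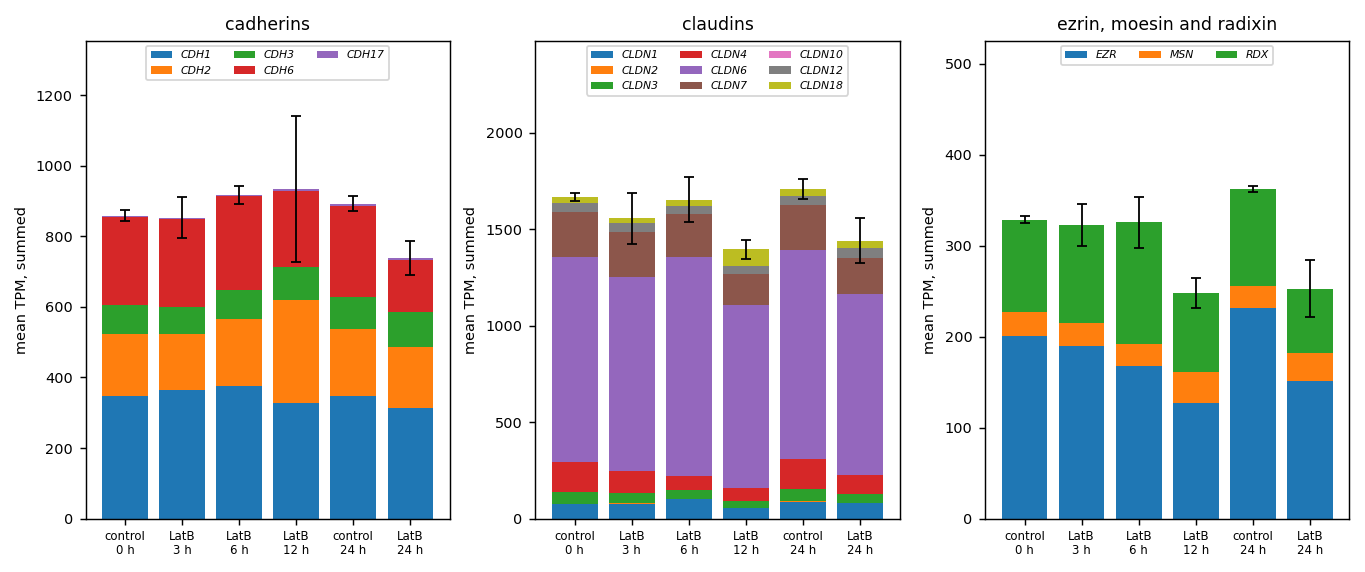
Mean TPM of the cadherins, claudins and ERM genes (stacked colours) in the 6 groups, with whiskers for the SD of the sum between libraries. CLDN6 fills 63.9% of the claudin bar in control 0 h, and the summed ERM bar is 252 TPM at LatB 24 h against 362 in control 24 h.

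Tight junction plaque and membrane proteins other than claudins were called in 6, 6, 7 and 6 of 8 at the 4 times. These were 75%, 75%, 87.5% and 75%, beside 31.6%, 43.3%, 35.8% and 40.8% of all genes. Cingulin, CGN (chr1:151510510-151538692, plus strand), which ties the plaque to actin and myosin, fell throughout. Its libraries read 204, 212 and 203 CPM in control 0 h, 157, 153 and 154 after 3 h, 137, 129 and 127 after 6 h and 118 and 88.9 after 12 h. At 24 h CGN read 121, 136 and 129.9 CPM under LatB and 212 and 202 under DMSO. The groups were apart at each time, and the log2 changes at 3, 6, 12 and 24 h were -0.42 ± 0.08, -0.65 ± 0.08, -0.996 ± 0.09 and -0.68 ± 0.09 (SE, adjusted p = 0.00128, 2.60e-05, 4.50e-06 and 6.30e-05). Paracingulin, CGNL1, its paralogue, had its largest fall at 6 h, with log2 changes at those times of -0.36 ± 0.08, -1.02 ± 0.08, -0.78 ± 0.09 and -0.49 ± 0.09 (SE, adjusted p = 0.00282, 6.44e-07, 2.53e-05 and 0.000631). The 3 h call of CGN was lost with the transcript length offset (-0.31) and that of CGNL1 against control 24 h (-0.18).

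ZO-1, TJP1 (chr15:29699367-29968915, minus strand), the main scaffold of the plaque, was lower at 6 and 12 h. It stood at 99.5, 117 and 129 CPM in control 0 h, 121, 115 and 103 after 3 h, 85.5, 72.9 and 62.1 after 6 h and 71.7 and 80.7 after 12 h. At 24 h TJP1 stood at 93.3, 97.1 and 106 CPM under LatB and 113 and 123 under DMSO. The 6 h and 12 h libraries lay below control 0 h (-0.65 ± 0.12 SE, adjusted p = 0.000519 and -0.60 ± 0.13 SE, adjusted p = 0.00318), and at 24 h the groups did not overlap but the change was not called (-0.25 ± 0.13 SE, adjusted p = 0.131). ZO-3, TJP3, was lower at 3 h (-0.22 ± 0.07 SE, adjusted p = 0.0260) and 6 h (-0.37 ± 0.07 SE, adjusted p = 0.000742) and higher at 12 h (0.25 ± 0.08 SE, adjusted p = 0.0201) and 24 h (0.20 ± 0.08 SE, adjusted p = 0.0460). The 24 h value of TJP3 was below 0 and not called on both TPM scales (-0.10) and with the transcript length offset (-0.11). Its 24 h call was lost without any 1 of 4 of the 5 libraries (0.16 to 0.26), and the 3 h and 12 h calls were lost without 1 of 2 and 1 of 3 libraries (-0.25 to -0.21 and 0.18 to 0.32). In all, TJP3 lost its 24 h call under 13 of 17 alternatives. The offset also ended the TJP3 calls at 3 h (-0.20) and 6 h (-0.28), the TPM scales that at 3 h (-0.26 and -0.28), and control 24 h as the reference that at 12 h (0.12).

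MARVELD3, a relative of occludin, rose at every time. It was at 36.9, 36.3 and 34.5 CPM in control 0 h, 40.2, 44.6 and 41.9 after 3 h, 52.99, 47.6 and 48.7 after 6 h and 53.5 and 45.1 after 12 h. At 24 h MARVELD3 was at 45.99, 48.8 and 48.8 CPM under LatB and 34.9 and 36.1 under DMSO. Each treated library was above the control ones, with log2 changes of 0.23 ± 0.07, 0.47 ± 0.07, 0.45 ± 0.07 and 0.43 ± 0.07 (SE, adjusted p = 0.0158, 8.42e-05, 0.000378 and 0.000522) at the 4 times. The 3 h call was lost without any 1 of 4 of 6 libraries (0.17 to 0.25), unscaled (0.16), with the transcript length offset (0.20) and on both TPM scales (0.12). Its exons share 1068 bases with PHLPP2 on the opposite strand, so part of its reads could belong to that gene.

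Occludin, OCLN, a membrane protein of tight junctions, was lower at 6 h (-0.23 ± 0.08 SE, adjusted p = 0.0257), 12 h (-0.47 ± 0.09 SE, adjusted p = 0.00111) and 24 h (-0.55 ± 0.09 SE, adjusted p = 0.000257). The 6 h call was lost without any 1 of 4 of 6 libraries (-0.31 to -0.17). The 6 h and 12 h calls were lost with the transcript length offset (-0.19 and -0.32) and on the TPM scales (-0.27 to -0.28, and -0.31). Tricellulin, MARVELD2, which seals the corners where cells meet, was lower at 3 h alone (-0.39 ± 0.13 SE, adjusted p = 0.0392), with overlapping groups and a call lost without any 1 of 4 libraries (-0.53 to -0.26), with the transcript length offset (-0.43) and on the TPM scales (-0.47 and -0.51). F11R, the junctional adhesion molecule JAM-A, was higher at 3 h (0.11 ± 0.04 SE, adjusted p = 0.0449), 12 h (0.13 ± 0.04 SE, adjusted p = 0.0346) and 24 h (0.22 ± 0.04 SE, adjusted p = 0.00151). Its call at 3 h was lost without any 1 of the 6 libraries (0.08 to 0.13) and the 12 h call without any 1 of 3 (0.10 to 0.15). In all, the 3 h call was lost under 15 of 18 alternatives and the 12 h call under 9 of 17. The 3 h value of F11R was below 0 on both TPM scales (-0.0095 and -0.0096) and was not called unscaled (0.034), and the 12 h and 24 h calls were lost with the offset (0.087 and 0.17) and on the TPM scales (0.097 and 0.16). OCLN, MARVELD2 and TJP1 each carry 2 gene identifiers in the deposited results table, so their counts are uncertain where reads could match an alternate copy.

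Desmosome genes held both the largest fall at 3 h and a rise that had reversed by 24 h. PKP2 (chr12:32790745-32896798, minus strand), plakophilin 2 of the desmosomal plaque, fell at every time. It read 88.6, 85.1 and 87.4 CPM in control 0 h, 50.1, 53.5 and 48.3 after 3 h, 47.8, 48.1 and 49.6 after 6 h and 49.6 and 56.2 after 12 h. At 24 h PKP2 read 64.6, 59.1 and 62.3 CPM under LatB and 86.2 and 100.2 under DMSO. Treated and control libraries did not overlap, and the log2 changes in order of time were -0.78 ± 0.06, -0.84 ± 0.06, -0.72 ± 0.07 and -0.59 ± 0.07 (SE, adjusted p = 1.44e-06, 5.56e-07, 9.22e-06 and 3.34e-05).

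DSC2 (chr18:31058840-31102522, minus strand), desmocollin 2, a desmosomal cadherin, had the largest called rise at 3 h. It was at 139, 131 and 137 CPM in control 0 h, 196, 199 and 183 after 3 h, 228, 238 and 235 after 6 h and 131 and 129 after 12 h. At 24 h DSC2 was at 124, 112 and 123 CPM under LatB and 139.7 and 141 under DMSO. The libraries of 3 h and 6 h lay above control 0 h, those of 12 h overlapped it, and those of 24 h lay below control 24 h. DSC2 rose by 0.51 ± 0.05 SE (adjusted p = 3.85e-06) at 3 h and 0.79 ± 0.05 SE (adjusted p = 8.11e-08) at 6 h, was not called at 12 h (-0.06 ± 0.05 SE, adjusted p = 0.440) and was lower at 24 h (-0.23 ± 0.05 SE, adjusted p = 0.00355). Its partner DSG2 was higher at 6 h (0.46 ± 0.05 SE, adjusted p = 1.09e-05) and lower at 24 h (-0.20 ± 0.06 SE, adjusted p = 0.0108, lost without control 24 h replicate 2, at -0.18, or against control 0 h, at -0.11).

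Desmoplakin, DSP (chr6:7541338-7586714, plus strand), the keratin linker and among the members with the most reads, was lower at 12 and 24 h only. It held 1255, 1322 and 1316 CPM in control 0 h, 1375, 1437 and 1293 after 3 h, 1289.5, 1296 and 1289 after 6 h and 905 and 916 after 12 h. At 24 h DSP held 896, 838 and 899.5 CPM under LatB and 1336 and 1290.5 under DMSO. The early groups overlapped and the later ones were far apart (-0.51 ± 0.05 SE, adjusted p = 1.13e-05 at 12 h and -0.58 ± 0.05 SE, adjusted p = 4.08e-06 at 24 h). PPL (periplakin) was also lower at 12 h (-0.29 ± 0.08 SE, adjusted p = 0.0138, lost without LatB 12 h replicate 1, at -0.26) and 24 h (-0.27 ± 0.08 SE, adjusted p = 0.0168, lost without either control 24 h library, at -0.25 and -0.28, against control 0 h, at -0.079, or with both controls pooled, at -0.16). At 24 h, 5 of the 6 tested desmosome genes were lower, beside 18.8% of all genes called lower. The remaining one, PKP3, was not called (-0.29 ± 0.12 SE, adjusted p = 0.0742). It was lower, however, at 24 h without LatB 24 h replicate 2 (-0.39) and at 12 h without LatB 12 h replicate 1 (-0.41).

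EPCAM was at 894, 844 and 861 CPM in control 0 h, 897, 963 and 898 after 3 h, 1042, 1027 and 1036 after 6 h and 927 and 731 after 12 h. At 24 h EPCAM was at 809.7, 793 and 854 CPM under LatB and 859 and 897 under DMSO. It was called at 6 h alone, as higher (0.26 ± 0.07 SE, adjusted p = 0.00915), and that call was lost without control 0 h replicate 2 (0.22), and unscaled the value was 0.17, still called. Without LatB 12 h replicate 1 it was lower at 12 h (-0.25).

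Polarity genes were called in 2, 2, 5 and 4 of 7 at the 4 times. These were 28.6%, 28.6%, 71.4% and 57.1%, beside 31.6%, 43.3%, 35.8% and 40.8% of all genes. PARD6B, a subunit of the apical PAR complex, was lower at each of the 4 times. It read 20.7, 18.3 and 19.6 CPM in control 0 h, 15.5, 13.8 and 14.7 after 3 h, 14.2, 14.2 and 15.05 after 6 h and 13.04 and 14.3 after 12 h. At 24 h PARD6B read 18.4, 17.7 and 16.6 CPM under LatB and 19.8 and 23.5 under DMSO. All treated libraries were below their controls, with log2 changes in order of time of -0.42 ± 0.08, -0.43 ± 0.08, -0.51 ± 0.09 and -0.30 ± 0.09 (SE, adjusted p = 0.00123, 0.000666, 0.000665 and 0.0138). The 24 h call was lost without control 24 h replicate 2 (-0.17) or LatB 24 h replicate 3 (-0.26), with the transcript length offset (-0.24), on the TPM scales (-0.22 and -0.25) and against control 0 h (-0.15).

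PARD3, the scaffold of the PAR complex, was higher at 3 h and 24 h. Its libraries held 94.4, 89.5 and 89.8 CPM in control 0 h, 108, 118 and 118 after 3 h, 100.1, 104 and 103 after 6 h and 88.5 and 70.9 after 12 h. At 24 h PARD3 held 96.4, 107 and 108 CPM under LatB and 84.7 and 90.6 under DMSO. The rise was 0.33 ± 0.07 SE (adjusted p = 0.00348) at 3 h and 0.25 ± 0.08 SE (adjusted p = 0.0273) at 24 h, the latter lost without any 1 of 4 of the 5 libraries (0.20 to 0.30), with the transcript length offset (0.18), on both TPM scales (0.17) and against control 0 h (0.19). With the offset the 3 h rise was 0.52, and without LatB 12 h replicate 1 PARD3 was lower at 12 h (-0.37). PRKCI, the atypical protein kinase C of the same complex, was lower at 12 h (-0.38 ± 0.05 SE, adjusted p = 0.000121, lost with the offset, at -0.36, and on the TPM scales, at -0.34 and -0.35), and at 6 h without control 0 h replicate 2 (-0.13).

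LLGL2, a basolateral protein that opposes the PAR complex, was at 181, 211 and 196 CPM in control 0 h, 206, 199 and 211 after 3 h, 184, 181 and 181 after 6 h and 150.0 and 103 after 12 h. At 24 h LLGL2 was at 131, 145 and 139 CPM under LatB and 200.3 and 184 under DMSO. It was lower at 12 h (-0.63 ± 0.12 SE, adjusted p = 0.000967) and 24 h (-0.48 ± 0.11 SE, adjusted p = 0.00435, lost without control 24 h replicate 1, at -0.42), where the groups did not overlap. SCRIB was higher at 24 h (0.20 ± 0.05 SE, adjusted p = 0.00471), a call lost without control 24 h replicate 1 (0.16) and against control 0 h (0.080), and the value was below 0 and not called on both TPM scales (-0.07) and with the transcript length offset (-0.05). The short transcript SCRIB-207, of 421 bases, held 23.9 ± 1.82 TPM in control 24 h and 21.2 ± 1.85 at LatB 24 h, beside 11.3 ± 0.357 and 14.4 ± 0.373 for SCRIB-201. DLG1 was lower at 12 h (-0.20 ± 0.05 SE, adjusted p = 0.0118, lost without LatB 12 h replicate 1, at -0.13, with the offset, at -0.23, and on both TPM scales, at -0.22). It was higher at 3 h without control 0 h replicate 3 (0.17) and lower at 6 h without control 0 h replicate 2 or LatB 6 h replicate 2 (both -0.16). CRB3 was higher at 6 h (0.26 ± 0.07 SE, adjusted p = 0.0112, lost without control 0 h replicate 2, at 0.23, or LatB 6 h replicate 1, at 0.22) and lower at 12 h (-0.23 ± 0.08 SE, adjusted p = 0.0474, lost without any 1 of 4 of the 5 libraries, at -0.43 to -0.05). The 6 h call of CRB3 was lost unscaled (0.17), with the offset (0.25) and on both TPM scales (0.16), and the 12 h call with the offset (-0.26) and against control 24 h (-0.13).

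Of the ERM genes, ezrin and radixin fell at 24 h and moesin was not called. EZR (chr6:158765741-158819368, minus strand) stood at 395, 426 and 417 CPM in control 0 h, 418, 438 and 398 after 3 h, 385, 368 and 358 after 6 h and 268 and 258 after 12 h. At 24 h EZR stood at 345, 285 and 328 CPM under LatB and 477 and 477 under DMSO. The 3 h libraries overlapped control 0 h and those of 12 and 24 h lay clear of their controls (-0.65 ± 0.07 SE, adjusted p = 2.05e-05 and -0.58 ± 0.07 SE, adjusted p = 4.13e-05). At 6 h the groups did not overlap but the change was not called (-0.16 ± 0.06 SE, adjusted p = 0.0631), and it was without LatB 6 h replicate 1 (-0.20).

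Radixin, RDX, read 213, 201 and 205 CPM in control 0 h, 249, 249 and 200.3 after 3 h, 285, 276 and 236 after 6 h and 191 and 162 after 12 h. At 24 h RDX read 182, 119 and 142 CPM under LatB and 219 and 219 under DMSO. It was higher at 6 h (0.36 ± 0.13 SE, adjusted p = 0.0380, lost without any 1 of 5 of 6 libraries, at 0.29 to 0.42, and also unscaled, at 0.27, on the TPM scales, at 0.38 and 0.39, and against control 24 h, at 0.28) and lower at 24 h (-0.57 ± 0.15 SE, adjusted p = 0.00711). Moesin, MSN, was not called at 24 h (0.33 ± 0.15 SE, adjusted p = 0.0955), where its groups did not overlap. It read 63.4 and 108 CPM in the 12 h libraries, so that without replicate 1 it was called higher at 12 h (0.66). In TPM, ERM transcripts summed to 362 ± 2.77 in control 24 h and 252 ± 31.2 at LatB 24 h.

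The difference between the effect at 24 h and that at 3 h was tested directly. LatB 24 h was set against its own vehicle and LatB 3 h against samples taken before treatment. The 3 h term therefore holds hours in culture as well as the drug. The difference was called for 17 members, 3 upward and 14 downward, where 27.9% of all genes were called (14.6% and 13.4%). A difference of at least 1 in size was called for CLDN2 alone, beside 5.75% of all genes. The 5 largest were CLDN2 (1.10 ± 0.22 SE, adjusted p = 0.00226), CDH6 (-0.78 ± 0.22 SE, adjusted p = 0.0164), RDX (-0.74 ± 0.20 SE, adjusted p = 0.0128), DSC2 (-0.73 ± 0.07 SE, adjusted p = 1.75e-05) and DSP (-0.66 ± 0.07 SE, adjusted p = 3.61e-05). With libraries unscaled the split was 9 upward and 11 downward. CDH6 lost its call without control 24 h replicate 2 (-0.74). RDX lost its call on the TPM scales (-0.67 and -0.68). CLDN2, DSC2 and DSP kept theirs under every alternative run other than the size limit of 1, which only CLDN2 passed. The 6 members lower at all 4 times were not called for this difference, with values between -0.27 and 0.19, although without control 24 h replicate 2 PKP2 was (0.31). That a difference misses the threshold does not show equal effects.

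**Figure D4:**
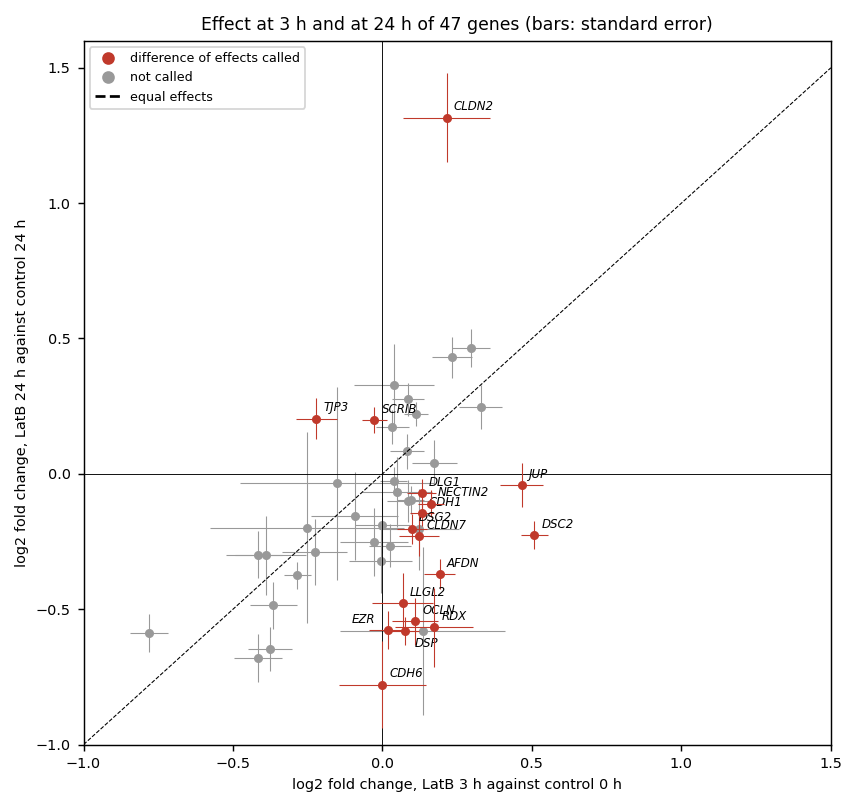
Log2 fold change of 47 members at 3 h against control 0 h (horizontal) and at 24 h against control 24 h (vertical), with standard errors as bars, the dashed line marking equal effects and red marking the 17 members whose difference was called. DSC2 and JUP lie to the right of 0 at 3 h (0.51 and 0.47) and at or below 0 at 24 h (-0.23 and -0.04), and CLDN2 lies alone at the top (1.32).

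At 12 h the libraries differed from each other more than those of control 0 h did. The median gap between replicates 1 and 2 over the members was 0.21 on the log2 scale at 12 h, beside 0.08 in control 0 h, and 6 members differed by more than 0.5, as did 6 at LatB 24 h and 1 in control 0 h. CLDN18 was 3.26-fold, MSN 1.70-fold, CDH2 1.56-fold and CDH6 1.51-fold higher in replicate 2, while LLGL2 and CLDN3 were at 0.686 and 0.690 times replicate 1. Without replicate 2, which had the high mesenchyme markers, 25 members were called (31 with both), and CDH2, NECTIN3, CLDN1, CLDN18, TJP3, F11R and CRB3 lost their calls. Without replicate 1, 32 were called. The falls of CLDN4, CGN, CGNL1, PKP2, DSP and EZR at 12 h were called without either library.

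**Figure D5:**
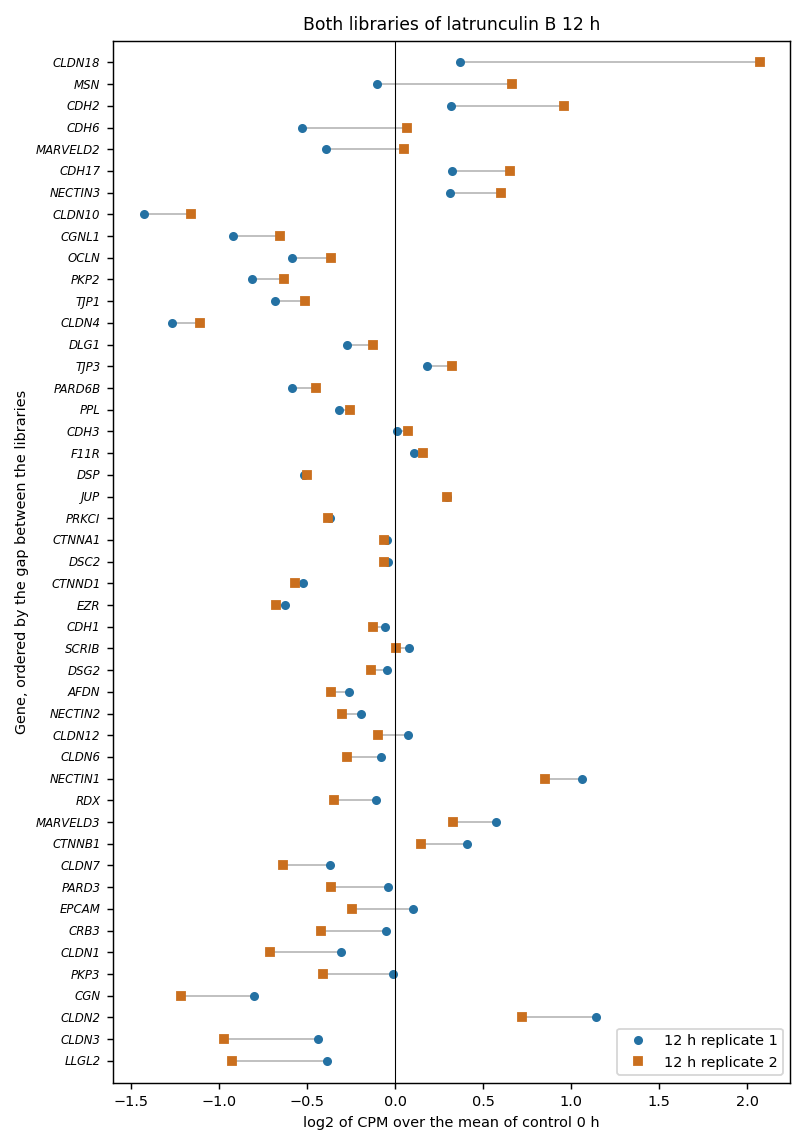
Log2 of CPM over the mean of control 0 h for 47 members in each LatB 12 h library (blue circles replicate 1, orange squares replicate 2), ordered by the gap between them. CLDN18, MSN, CDH2 and CDH6 are the widest gaps at the top, and DSP, JUP and PRKCI coincide in the middle.

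Other junction genes, 99 in a list chosen by function, were called in both directions. Of 89 tested, 12 were higher and 13 lower at 3 h, 21 and 26 at 6 h, 17 and 27 at 12 h, and 14 and 30 at 24 h. These were 28.1%, 52.8%, 49.4% and 49.4% of the list, beside 31.6%, 43.3%, 35.8% and 40.8% of all genes. The median log2 change was -0.19 at 24 h. Large called rises at 24 h were in genes with few reads. CLDN5, a claudin of endothelium, had 6 to 11 reads per library under LatB and 1 under DMSO, and CDH22, a cadherin, had 35 to 55 against 5 and 6 (log2 change 3.02 ± 0.64 SE, adjusted p = 0.00212). DLG2, a scaffold related to DLG1, fell by 2.57 ± 0.21 on the log2 scale (adjusted p = 2.16e-06), from 6.85 and 6.89 CPM to 1.67, 0.829 and 0.964. SYNPO, an actin-bundling protein, fell by 1.91 ± 0.32 (adjusted p = 0.000469), and CRB2, a Crumbs protein, fell by 1.78 ± 0.30 (adjusted p = 0.000417).

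Mesenchymal transition factors and markers, a list of 20 of which 19 were tested, gave 1 higher and 1 lower at 3 h, 0 and 3 at 6 h, 5 and 0 at 12 h and 0 and 0 at 24 h by edgeR (1 gene had an unadjusted p below 0.05 at 24 h). These were 10.53%, 15.8%, 26.3% and 0% of the list, below the share of all genes at each time. The median log2 change of the list was -0.57, -0.21, 0.71 and -0.25, so few calls do not show that these genes were unchanged. The 5 at 12 h were COL3A1 (2.41 ± 0.68 SE, adjusted p = 0.0142), TWIST1 (2.28 ± 0.55, 0.00589), LUM (2.27 ± 0.59, 0.00941), ZEB1 (1.28 ± 0.42, 0.0281) and SNAI2 (1.04 ± 0.37, 0.0451). All 5 were higher in replicate 2 than in replicate 1, COL3A1 for example at 684 against 101 CPM (52.5 to 105 in control 0 h) and TWIST1 at 6.87 against 1.27 (0.636 to 1.116). The list sum was 6152 CPM in LatB 12 h replicate 1 and 10766 in replicate 2, beside 7501 to 8128 in control 0 h.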

How the data were processed

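PolyA RNA was sequenced from 16 samples in 6 groups. The authors estimated transcript abundance with Salmon 1.3.0 (per the submitters' processing notes), and the deposited tables give estimated counts and TPM for 177456 transcripts per library. Of these, 165533 were matched to GENCODE release 44 by identifier, and unmatched transcripts held 2.92% to 3.17% of reads. Estimated counts were summed per gene and rounded, giving 22873195 to 32537626 reads per library (23609727 to 33515398 with the unmatched transcripts), which sets a precision that covers counting error only. Libraries were scaled by TMM (factors 0.947 to 1.05), genes were filtered by edgeR's filterByExpr by group, and 16705 genes were tested in a single fit over all groups by edgeR's two-sided quasi-likelihood test (edgeR 4.0.16, limma 3.58.1, R 4.3.3) with Benjamini-Hochberg adjustment over all genes tested. Calls required an adjusted p below 0.05. All ± after log2 values are standard errors. DESeq2 1.42.0 and limma-trend on log2-transformed TPM with pseudocounts of 1 and 0.1 were among the alternatives, and the code was checked on simulated data. A further table of the authors holds 16 per-sample columns and their own comparisons (fold changes and p-values), of which only gene identifiers and symbols were used.

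The members and lists were chosen with earlier results of these data known. Every called member could be named. Values in every library were given for the called members with the largest rise and fall of each role group at 3 h and at 24 h, for the 5 largest called differences between the effects at 24 h and 3 h, and for CDH1, CDH2, CTNNB1, TJP1, EPCAM and EZR. For the lists of other junction genes and of mesenchymal genes, at most 6 genes with the largest called change were named. One gene that this rule names is not reported here. Gene positions are those of GENCODE on GRCh38, and counts are over all exons of a gene. Where exons of neighbouring genes overlap (CDH6, CTNNA1, CTNND1, CLDN2, CLDN6, CLDN7, CLDN10, CLDN12, TJP3, MARVELD3, F11R and CRB3), shared reads were divided by the authors' estimation.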

Additional observations from a re-analysis of the deposited data

Results flagged for a closer look

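For 17 members the change from control differed between LatB 24 h and LatB 3 h, in edgeR's test of the difference itself, adjusted over all genes tested. The 24 h control was vehicle of the same hour, and the 3 h control was taken before treatment. Drug and hours in culture therefore cannot be told apart in the 3 h term. On the log2 scale, as the effect at 24 h minus that at 3 h, the values were 1.10 for CLDN2, 0.42 for TJP3 and 0.23 for SCRIB in the upward direction. Downward, adherens junction genes held -0.28 for CDH1, -0.78 for CDH6, -0.51 for JUP, -0.56 for AFDN and -0.27 for NECTIN2. Tight junction genes held -0.35 for CLDN7 and -0.66 for OCLN. Desmosome genes held -0.66 for DSP, -0.30 for DSG2 and -0.73 for DSC2, polarity genes -0.55 for LLGL2 and -0.20 for DLG1, and the ERM genes -0.60 for EZR and -0.74 for RDX. The call was lost for CLDN7 (-0.34), TJP3 (0.38), LLGL2 (-0.49) and SCRIB (0.19) without control 24 h replicate 1, for CDH6 without control 24 h replicate 2 (-0.74), and for DLG1 without any 1 of 10 of the 11 libraries (-0.24 to -0.17). The call was also lost with the transcript length offset for TJP3 (0.091) and SCRIB (0.11), and on both TPM scales for TJP3 (0.16 and 0.17), SCRIB (0.18), JUP (-0.39 and -0.40), NECTIN2 (-0.19 and -0.20), OCLN (-0.61 and -0.63), DSG2 (-0.23 and -0.24) and RDX (-0.67 and -0.68). Unscaled it was lost for CLDN7 (-0.25), DSG2 (-0.20) and DLG1 (-0.10), and with both effects taken against control 0 h for SCRIB (0.11). In all, DLG1 lost its call under 17 of 22 alternatives.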

How the results depend on the processing

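Of 102 calls of members at the 4 times, 53 were kept under every alternative run other than the size limit on the log2 change, given below. The alternatives named beside a gene are not always all those that ended its call. Recomputed member values numbered 5023, including those of members not called in the main fit, which had no called direction to reverse. A called direction was reversed by 12 values, none of them called under the alternative concerned. These were NECTIN2 (-0.023 and -0.023) and F11R (-0.0095 and -0.0096) at 3 h and CLDN12 (-0.025 and -0.026) at 6 h on the TPM scales, TJP3 at 24 h with the transcript length offset (-0.11) and on the TPM scales (-0.10 and -0.10), and SCRIB at 24 h with the offset (-0.053) and on the TPM scales (-0.066 and -0.068), and the cause was not tested. At 3 h, 11 members were called with the offset, 11 on each TPM scale and 11 without LatB 3 h replicate 2. The difference of effects was called for 10 members on each TPM scale and for 27 with the other control as reference. Requiring a log2 change of at least 1 left 0, 1, 3 and 1 members at the 4 times and 1 for the difference. Without 1 library, 11 to 14 members were called at 3 h, 23 to 25 at 6 h, 25 to 32 at 12 h, 19 to 26 at 24 h and 12 to 17 for the difference. Libraries of the same replicate number did not deviate together from their group means (correlations of deviations -0.06 to 0.06). With so few libraries per group this cannot show that the samples were unpaired. With a replicate block 15, 25, 30 and 23 members were called at the 4 times, 0 between controls and 16 for the difference. Without scaling, the median of all genes for the difference moved from -0.01 to 0.09. Groups of 2 libraries limit the 12 h and 24 h comparisons.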
